A study of Homo sapiens with 18 samples.

Results

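The mRNAs of 9 regulators of mRNA silencing, translational repression and decay were followed on 18 exon arrays of an astrocytoma cell line: AGO2, MOV10, DDX6, PUM2, RC3H2, LARP1, FMR1, FXR2 and TRIM25. The genes were named as regulators of silencing, of decay and of mRNAs with a terminal oligopyrimidine tract, and each was read from the brightest transcript cluster (the array's set of probes for a gene) that carried its symbol alone. All 9 were found among the 14232 genes with such a row, and each had 1 transcript cluster. Averaged over the arrays, their signals lay between the 74.3 and the 96.3 percentile of all 22011 transcript clusters.

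The cells were U251-MG, an established human astrocytoma line, and every group came from this single line. Cells received either 500 µM arsenite, an oxidative stressor that induces stress granules, or the vehicle DMSO (control cells), and RNA was taken after 30 min. The fractions were input and RNA immunoprecipitates (RIPs) with antibodies against TIAR, also called Tial in the labels, or against G3BP1. The resulting 6 groups (input, TIAR RIP and G3BP1 RIP, each from control and from arsenite-treated cells) held 3 biological replicates each. A RIP made with a control antibody was not analysed here. A signal is a log2 value of the composition of an RNA sample, so a difference of 1 is a doubling of an mRNA's share and says nothing about the amount of RNA that an antibody recovered.

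AGO2, MOV10 and DDX6 act where microRNA-guided silencing meets the decay machinery: Argonaute proteins hold the microRNA, MOV10 is an RNA helicase found with them, and DDX6 is a DEAD-box helicase of P-bodies that joins the CCR4-NOT deadenylase complex to translational repression and decapping. PUM2 and RC3H2 recognise sequence or stem-loop elements in 3′ UTRs and recruit deadenylases, whereas LARP1 binds the cap and first bases of mRNAs with a terminal oligopyrimidine tract. FMR1 encodes FMRP, the translational repressor lost in fragile X syndrome, FXR2 encodes its relative, and TRIM25 is an RNA-binding ubiquitin ligase of antiviral RNA sensing. TIAR and G3BP1, the proteins precipitated, are RNA-binding proteins of stress granules, where mRNAs held back from translation gather.

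The median signal of the 18 arrays ran from 7.73 to 8.07, and each array's mean correlation with the others of its group ran from 0.980 to 0.995. Array weights estimated by limma were lowest for replicate 3 of the G3BP1 RIP from control cells (0.09) and replicate 1 of arsenite-treated input (0.15), so results that rest on these 2 arrays are also given without them. Of 10 astrocyte and glioma markers measured, 7 lay above the median of all transcript clusters, VIM, CD44 and SOX9 among them, while S100B, AQP4 and ALDH1L1 lay below it. The same held for 3 of 6 neuron, 1 of 7 myeloid and 1 of 4 oligodendrocyte markers. Centring each array on its median moved the median of all transcript clusters by up to 0.23 in the comparison of both RIPs in arsenite-treated cells. For the G3BP1 RIP against input in those cells the shift was -0.17. Differences of about that size, and larger ones for single members, therefore depend on the scaling. In that last comparison quantile normalization moved PUM2 from 0.77 to 0.40, DDX6 from 0.36 to 0.07 and FMR1 from 0.23 to -0.18. The lowest values there over the settings tried were 0.47 for AGO2, 0.91 for RC3H2 and 0.94 for TRIM25. No member value that passed the test changed sign under any setting tried.

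Because LARP1 and proteins of the TIAR family are known to bind mRNAs that begin with a C followed by a run of pyrimidines, the first bases of 8 members were read from RefSeq (GRCh38.p14). AGO2 was left out, and for each other member only the first start listed was read. Each line gives the 10 bases before the annotated start of the transcript and the 20 from it, 5′ to 3′ on the gene's strand, with a pyrimidine run that begins with C at the first base in capitals.
DDX6 (chr11:118791725-118791754, minus strand): ccccacactcagacgcgcgcccggcgtctc
MOV10 (chr1:112674429-112674458, plus strand): gagcttccccattccggccgcagccgacct
LARP1 (chr5:154682969-154682998, plus strand): ctccgccgccagaggctgagtcatcgctgc
PUM2 (chr2:20352234-20352263, minus strand): acagaaatccagacctgggaagcaaggcta
FMR1 (chrX:147911909-147911938, plus strand): ggggttcggcCTCagtcaggcgctcagctc
FXR2 (chr17:7614878-7614907, minus strand): gtgcgcctgcgcagtaggcggcggtggcag
RC3H2 (chr9:122905340-122905369, minus strand): ctagatcgggatccctccaggtccgcctcc
TRIM25 (chr17:56914030-56914059, minus strand): agctaggtttCgtttcctcggcggcctcgg
None of the 8 windows held a C at the first base followed by at least 4 more pyrimidines on the gene's strand. FMR1 came nearest with a run of 3 bases, and TRIM25 began with a C followed at once by a G. The motif was present in 1429 (4.07%) of all 35116 start windows in RefSeq's promoter set. These are annotated starts, which the arrays did not measure, and the absence of these letters says only that they are not in this window.

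**Figure D1:**
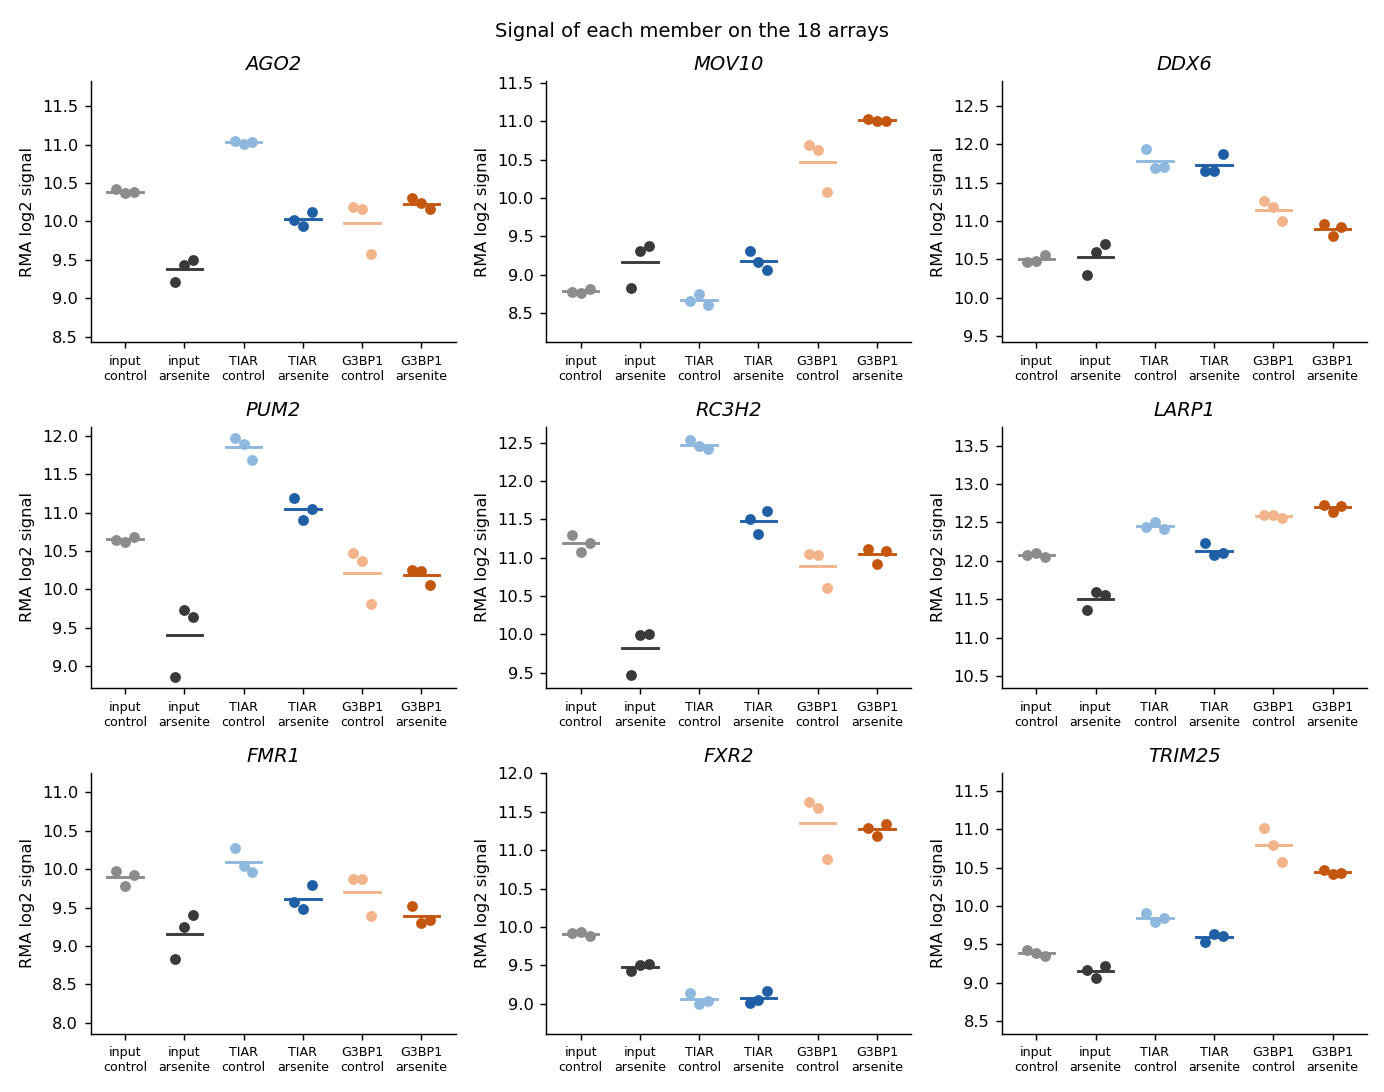
RMA log2 signal of each of the 9 mRNAs on the 18 arrays: points are biological replicates 1 to 3 from left to right, lines are group means, and every panel spans the same range of log2 units. AGO2, PUM2 and RC3H2 peak in the TIAR RIP of control cells, whereas MOV10, FXR2 and TRIM25 stand highest in both groups of the G3BP1 RIP.

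AGO2 (transcript cluster 3156193) encodes the Argonaute that can cut microRNA targets. With arsenite its mRNA fell 2.01-fold in input and by nearly the same amount in the TIAR RIP, while no change passed the test in the G3BP1 RIP. In these bulk samples fewer cells with the mRNA and less of it per cell cannot be told apart, nor can a lower share of an mRNA and a higher share of others. In control cells the signals on replicates 1, 2 and 3 were 10.42, 10.36 and 10.38 in input, 11.04, 11.01 and 11.03 in the TIAR RIP, and 10.19, 10.16 and 9.58 in the G3BP1 RIP. In arsenite-treated cells they were 9.21, 9.43 and 9.50 in input, 10.02, 9.94 and 10.12 in the TIAR RIP, and 10.30, 10.24 and 10.16 in the G3BP1 RIP. Every treated array lay below every control array in input and in the TIAR RIP, while the G3BP1 arrays overlapped. The differences, arsenite minus control, were -1.0 ± 0.13 (SE of the limma fit, here and below) in input (adjusted p = 1.7e-04), -1.0 ± 0.13 for the TIAR RIP (adjusted p = 1.5e-04) and 0.25 ± 0.13 in the G3BP1 RIP (adjusted p = 0.249). AGO2's difference lay at the 0.950 percentile of all transcript clusters in input and at the 0.345 percentile in the TIAR RIP.

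The order of the 6 groups for AGO2 was TIAR RIP control, input control, G3BP1 RIP arsenite, TIAR RIP arsenite, G3BP1 RIP control and input arsenite, and among neighbours only the fourth and the fifth overlapped. AGO2 mRNA was above input in the TIAR RIP by 0.64 ± 0.13 in control cells and by the same 0.64 ± 0.13 in treated cells, with adjusted p = 8.9e-04 and 8.4e-04. AGO2 in the G3BP1 RIP was below input in control cells (-0.41 ± 0.13, adjusted p = 0.0201) and above input in treated cells (0.85 ± 0.13, adjusted p = 7.7e-05). The deficit in control cells was -0.21 (adjusted p = 0.0583) without replicate 3 of that RIP, and lost its call also when input replicate 1 was left out (adjusted p = 0.0577) or the compared groups were fitted alone (adjusted p = 0.139). AGO1, AGO3 and AGO4, the other Argonautes, also fell in input with arsenite, by 1.06 ± 0.14, 0.66 ± 0.15 and 0.60 ± 0.16 (adjusted p = 2.7e-04, 0.00915 and 0.022). AGO4 was dim, with a mean signal of 6.84, below the median of every array (7.73 to 8.07). Of the other Argonautes only AGO1 had an arsenite difference that passed the test within the RIPs, with a fall of 0.64 ± 0.14 in the TIAR RIP and a rise of 0.50 ± 0.14 in the G3BP1 RIP (adjusted p = 0.00804 and 0.0286). Each of them was above input in both RIPs of treated cells. Their stress changes in the G3BP1 RIP exceeded those of input by 1.57 ± 0.20 for AGO1, 0.77 ± 0.21 for AGO3 and 1.00 ± 0.23 for AGO4. These also passed the test (adjusted p = 1.4e-04, 0.0221 and 0.00703).

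MOV10 (2352275), the helicase found with Argonautes, behaved unlike AGO2: its mRNA stood far above input in the G3BP1 RIP and near input in the TIAR RIP, and its stress differences were positive in all 3 fractions. Control-cell signals were 8.77, 8.76 and 8.81 in input, 8.65, 8.74 and 8.61 in the TIAR RIP and 10.69, 10.63 and 10.08 in the G3BP1 RIP. Signals in treated cells were 8.82, 9.31 and 9.38 in input, 9.30, 9.17 and 9.06 in the TIAR RIP and 11.03, 11.00 and 11.00 in the G3BP1 RIP. In each fraction all treated arrays exceeded all control arrays, although replicate 1 of treated input, an array that stands apart, did so by little. Arsenite minus control was 0.39 ± 0.15 in input (adjusted p = 0.113), 0.51 ± 0.15 for the TIAR RIP (adjusted p = 0.0415) and 0.55 ± 0.15 in the G3BP1 RIP (adjusted p = 0.0248). Without both arrays that stand apart, the input difference passed the test at 0.56 (adjusted p = 1.6e-04). The rise in the TIAR RIP lost its call whenever any of its 6 arrays was left out (adjusted p from 0.058 to 0.158), and that in the G3BP1 RIP when the compared groups were fitted alone or when any treated array or control replicate 3 was left out (adjusted p from 0.0618 to 0.146).

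MOV10 exceeded input in the G3BP1 RIP 3.21-fold in control cells (1.68 ± 0.15, adjusted p = 4.8e-07) and 3.58-fold in treated cells (1.84 ± 0.15, adjusted p = 1.9e-07), placing it at the 98.7 and 99.1 percentile of all transcript clusters. MOV10's differences from input in the TIAR RIP were -0.11 ± 0.15 and 0.01 ± 0.15 (adjusted p = 0.62 and 0.974), with 95% intervals from -0.44 to 0.21 and from -0.32 to 0.33. The 2 G3BP1 groups headed its order, the TIAR and input arrays of treated cells overlapped, and control input and the control TIAR RIP came last.

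DDX6 (3393946), the P-body helicase, stood above input in both RIPs, higher in the TIAR RIP than in the G3BP1 RIP, and none of its differences with arsenite passed the test. Control-cell signals were 10.47, 10.47 and 10.55 in input, 11.94, 11.69 and 11.70 in the TIAR RIP and 11.26, 11.18 and 11.00 in the G3BP1 RIP. Treated-cell signals were 10.30, 10.59 and 10.70 in input, 11.65, 11.65 and 11.87 in the TIAR RIP and 10.96, 10.80 and 10.92 in the G3BP1 RIP. Treated and control arrays overlapped in input and in the TIAR RIP, and in the G3BP1 RIP every treated array lay below every control array. The stress differences were 0.03 ± 0.11 in input (95% interval -0.20 to 0.27), -0.05 ± 0.11 in the TIAR RIP (-0.29 to 0.18) and -0.25 ± 0.11 in the G3BP1 RIP (-0.49 to -0.01, adjusted p = 0.168). Without both arrays that stand apart, the last was -0.33 and passed the test (adjusted p = 0.0202).

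DDX6 mRNA was 2.43-fold above input in the TIAR RIP of control cells (1.28 ± 0.11, adjusted p = 2.2e-07) and 2.29-fold above it in that of treated cells (1.19 ± 0.11, adjusted p = 6.1e-07). Its G3BP1 RIP excess was 0.65 ± 0.11 in control cells (adjusted p = 2.2e-04). In treated cells it was 0.36 ± 0.11 (adjusted p = 0.0148), which shrank to 0.20 with arrays centred on their medians (adjusted p = 0.0733), to 0.07 after quantile normalization (adjusted p = 0.528) and to 0.25 without replicate 1 of treated input (adjusted p = 0.0757). That excess also lost its call without replicate 1 of the treated G3BP1 RIP (adjusted p = 0.0562) and with the compared groups fitted alone (adjusted p = 0.0649).

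PUM2 (2542816) encodes a Pumilio protein, which binds a short element in 3′ UTRs and brings in the CCR4-NOT deadenylase. Its mRNA dropped with arsenite in input and in the TIAR RIP, and no change of its share passed the test in the G3BP1 RIP. Signals in control cells were 10.64, 10.62 and 10.68 in input, 11.98, 11.90 and 11.69 in the TIAR RIP and 10.48, 10.37 and 9.81 in the G3BP1 RIP. In treated cells the 3 replicates gave 8.86, 9.73 and 9.64 in input, 11.20, 10.90 and 11.04 in the TIAR RIP and 10.26, 10.23 and 10.05 in the G3BP1 RIP. Treated input lay below control input on every array, with replicate 1 lowest by far, the TIAR arrays were likewise separate, and the G3BP1 arrays overlapped. Arsenite minus control was -1.24 ± 0.20 in input (2.37-fold lower, adjusted p = 9.6e-04), -0.81 ± 0.20 for the TIAR RIP (adjusted p = 0.0152) and -0.04 ± 0.20 in the G3BP1 RIP (95% interval -0.47 to 0.39). The input difference was -0.97, and still passed the test, without replicate 1 of treated input. The fall in the TIAR RIP was -0.74 (adjusted p = 0.0658) without treated replicate 2, -0.75 (adjusted p = 0.0642) without control replicate 1 and -0.79 (adjusted p = 0.0563) without control replicate 2.

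PUM2 exceeded input in the TIAR RIP by 1.20 ± 0.20 in control cells and by 1.64 ± 0.20, or 3.11-fold, in treated cells (adjusted p = 1.7e-04 and 9.1e-06). Its difference from input in the G3BP1 RIP was -0.43 ± 0.20 in control cells (adjusted p = 0.108) and 0.77 ± 0.20 in treated cells (adjusted p = 0.00565). The control value passed with median centring (-0.45, adjusted p = 0.0297) and quantile normalization (-0.50, adjusted p = 0.00287). The treated value was 0.50 without replicate 1 of treated input (adjusted p = 0.0235) and 0.40 with quantile normalization (adjusted p = 0.012). The TIAR RIP headed its order in control and then in treated cells, control input followed, both G3BP1 groups overlapped after it, and treated input was lowest.

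RC3H2 (3224366) encodes Roquin-2, which binds stem-loop decay elements in 3′ UTRs. Of the 9 members it had the lowest stress difference in input, -1.36 ± 0.15 or 2.57-fold (adjusted p = 3.9e-05), at the 0.104 percentile of all transcript clusters. Without replicate 1 of treated input this difference was -1.19 and still passed the test. Control input read 11.29, 11.08 and 11.19, and treated input read 9.47, 10.00 and 10.00. The TIAR RIP read 12.53, 12.45 and 12.42 in control and 11.50, 11.31 and 11.61 in treated cells, a difference of -1.0 ± 0.15 (adjusted p = 3.8e-04). The G3BP1 RIP read 11.04, 11.03 and 10.60 in control and 11.11, 10.92 and 11.09 in treated cells, a difference of 0.15 ± 0.15 (adjusted p = 0.625). Treated and control arrays were separate in the first 2 fractions and overlapped in the G3BP1 RIP.

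RC3H2 mRNA was enriched over input in the TIAR RIP by 1.28 ± 0.15 in control cells (adjusted p = 3.9e-06) and by 1.65 ± 0.15 in treated cells (adjusted p = 3.9e-07). RC3H2 in the G3BP1 RIP stood at -0.29 ± 0.15 against input in control cells (adjusted p = 0.131) and at 1.22 ± 0.15 in treated cells (adjusted p = 7.4e-06). As for PUM2, the control value passed with median centring (-0.31, adjusted p = 0.0319) and quantile normalization (-0.30, adjusted p = 0.00754). PUM2 and RC3H2 thus had the same order at the top, TIAR RIP control before TIAR RIP arsenite before control input, and treated input was the lowest group of both. For RC3H2 control input overlapped with the treated G3BP1 RIP, and the treated with the control G3BP1 RIP.

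LARP1 (2836738), the reader of terminal oligopyrimidine mRNAs, was above input in both RIPs. Control-cell signals were 12.07, 12.10 and 12.05 in input, 12.44, 12.50 and 12.41 in the TIAR RIP and 12.59, 12.60 and 12.55 in the G3BP1 RIP. Treated-cell signals were 11.36, 11.59 and 11.55 in input, 12.24, 12.07 and 12.10 in the TIAR RIP and 12.73, 12.64 and 12.71 in the G3BP1 RIP. Input and TIAR arrays of treated cells were all below their controls, whereas the G3BP1 arrays of treated cells were all slightly above theirs. LARP1 fell with arsenite by 0.57 ± 0.07 in input (1.49-fold, adjusted p = 1.7e-04) and by 0.32 ± 0.07 in the TIAR RIP (adjusted p = 0.00932), and the difference in the G3BP1 RIP was 0.11 ± 0.07 (adjusted p = 0.405).

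The excess of LARP1 over input in the TIAR RIP was 0.38 ± 0.07 in control cells (adjusted p = 5.9e-04) and 0.63 ± 0.07 in treated cells (adjusted p = 5.2e-06). For the G3BP1 RIP it was 0.51 ± 0.07 in control cells (adjusted p = 4.6e-05) and 1.19 ± 0.07, or 2.28-fold, in treated cells (adjusted p = 1.2e-08). The order ran from the G3BP1 RIP, treated then control, to the TIAR RIP, control then treated, and last to control and treated input, and only the treated TIAR RIP and control input overlapped.

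FMR1 (3994100), which encodes FMRP, differed from input by at most 0.45 in either RIP, and it fell with arsenite in input. Its control-cell signals were 9.98, 9.79 and 9.92 in input, 10.28, 10.04 and 9.97 in the TIAR RIP and 9.87, 9.87 and 9.39 in the G3BP1 RIP. In treated cells they were 8.83, 9.24 and 9.41 in input, 9.58, 9.48 and 9.79 in the TIAR RIP and 9.53, 9.30 and 9.34 in the G3BP1 RIP. Each group overlapped with the next in order, so no neighbouring pair of the 6 differed beyond its spread. Across conditions FMR1 fell in input by 0.73 ± 0.16 (1.66-fold, adjusted p = 0.00611, or 0.0517 with the compared groups fitted alone). Without replicate 1 of treated input the difference was -0.57. Its stress differences of -0.48 ± 0.16 in the TIAR RIP and -0.32 ± 0.16 in the G3BP1 RIP did not pass (adjusted p = 0.0645 and 0.222), although without both arrays that stand apart they were -0.48 and -0.48 and passed (adjusted p = 0.00378 and 0.00752). Against input its one called difference was 0.45 ± 0.16 in the TIAR RIP of treated cells (adjusted p = 0.0297). That difference was 0.29 without replicate 1 of treated input (adjusted p = 0.149) and also lost its call without treated TIAR replicate 1 or 3 (adjusted p = 0.057 and 0.122) and with the compared groups fitted alone (adjusted p = 0.0851). In control cells its values of 0.20 ± 0.16 in the TIAR RIP and -0.19 ± 0.16 in the G3BP1 RIP did not pass (adjusted p = 0.36 and 0.401). The former passed with median centring (0.37, adjusted p = 0.0166) and quantile normalization (0.30, adjusted p = 0.00761), and the latter with quantile normalization (-0.31, adjusted p = 0.00604).

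FXR2 (3743852), the relative of FMR1, was split sharply between the RIPs: its mRNA was above input in the G3BP1 RIP and below input in the TIAR RIP. Signals in control cells were 9.92, 9.94 and 9.89 in input, 9.14, 8.99 and 9.04 in the TIAR RIP and 11.63, 11.55 and 10.89 in the G3BP1 RIP. In treated cells they were 9.42, 9.50 and 9.52 in input, 9.01, 9.05 and 9.16 in the TIAR RIP and 11.29, 11.19 and 11.33 in the G3BP1 RIP. The 2 groups of each RIP overlapped, and every other neighbouring pair was separate. The excess in the G3BP1 RIP was 1.44 ± 0.14 (2.72-fold) in control and 1.79 ± 0.14 (3.46-fold) in treated cells, with adjusted p = 9.6e-07 and 1.1e-07. The deficit in the TIAR RIP was -0.86 ± 0.14 in control cells (adjusted p = 1.4e-04) and -0.41 ± 0.14 in treated cells (adjusted p = 0.0289). The latter lost its call when replicate 1 or 2 of the treated TIAR RIP or replicate 2 or 3 of treated input was left out, with values from -0.40 to -0.37 and adjusted p from 0.0662 to 0.0898.

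With arsenite FXR2 differed by -0.43 ± 0.14 in input (adjusted p = 0.0544), 0.02 ± 0.14 for the TIAR RIP (adjusted p = 0.981) and -0.08 ± 0.14 in the G3BP1 RIP (adjusted p = 0.803). Without both arrays that stand apart the input and G3BP1 values were -0.40 and -0.32 and passed the test (adjusted p = 0.00118 and 0.004). FXR1, the third gene of the FMR1 family, had no called difference from input: it differed by -0.06 ± 0.17 and 0.26 ± 0.17 in the TIAR RIP and by 0.33 ± 0.17 and -0.12 ± 0.17 in the G3BP1 RIP of control and treated cells.

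TRIM25 (3763656), the ubiquitin ligase of RNA sensing, had no overlap between neighbouring groups of its order. Its stress differences in input and in the TIAR RIP nevertheless did not pass the test. How many of all transcript clusters are likewise separate was not counted. Its signals in control cells were 9.43, 9.39 and 9.35 in input, 9.92, 9.79 and 9.85 in the TIAR RIP and 11.01, 10.80 and 10.57 in the G3BP1 RIP. In treated cells they were 9.16, 9.06 and 9.22 in input, 9.53, 9.64 and 9.61 in the TIAR RIP and 10.47, 10.42 and 10.43 in the G3BP1 RIP. The G3BP1 RIP was highest, the TIAR RIP next and input lowest, and in each fraction the treated arrays were below the control arrays. TRIM25 exceeded input by 0.46 ± 0.09 and 0.44 ± 0.09 in the TIAR RIP of control and treated cells (adjusted p = 8.1e-04 and 0.00114). The excess in the G3BP1 RIP was 1.41 ± 0.09 (2.65-fold) and 1.29 ± 0.09 (2.45-fold), with adjusted p = 2.2e-08 and 4.6e-08.

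The stress differences of TRIM25 were -0.24 ± 0.09 in input, -0.26 ± 0.09 in the TIAR RIP and -0.35 ± 0.09 in the G3BP1 RIP, and only the last passed the test (adjusted p = 0.11, 0.0953 and 0.0187). Its call was lost without treated G3BP1 replicate 2 or 3 or control replicate 1 (adjusted p from 0.0548 to 0.0788; -0.24 without the last) and with the compared groups fitted alone (adjusted p = 0.216). Without both arrays that stand apart the input and TIAR values were -0.25 and -0.26 and passed (adjusted p = 0.0371 and 0.0137).

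**Figure D2:**
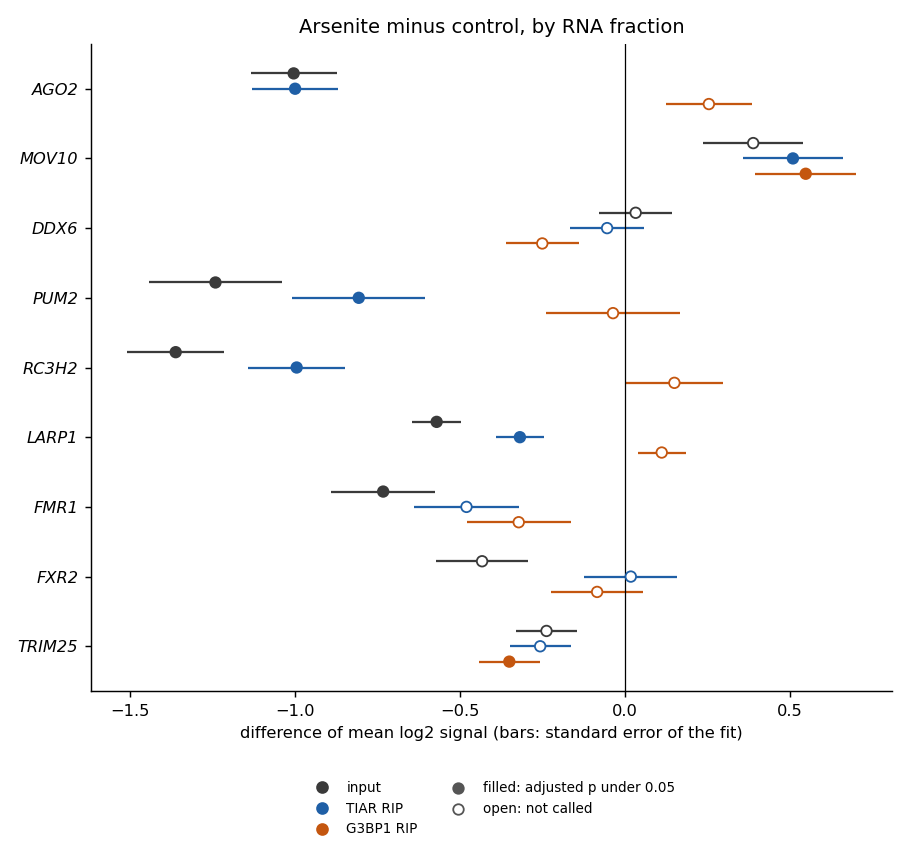
Arsenite minus control for each mRNA in input, the TIAR RIP and the G3BP1 RIP (difference of mean log2 signals, bars are the standard error of the fit, filled points passed the test). AGO2, PUM2, RC3H2 and LARP1 are lower in input and in the TIAR RIP and near 0 in the G3BP1 RIP, and MOV10 is to the right of 0 in all 3 fractions.

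Across the 9 members, the mRNAs of AGO2, LARP1, PUM2, FMR1 and RC3H2 fell with arsenite in input and none rose, so 5 of 9 fell, beside 11.2% of all transcript clusters that fell and 2.52% that rose. The median difference of the members was -0.57, against -0.03 for all transcript clusters. All 9 members are among the brighter transcript clusters. With the lowest 50% of signals left out, 24.7% of the transcript clusters kept fell and 4.43% rose, with a median of -0.15. Without both arrays that stand apart 8 of the 9 passed, 7 lower and MOV10 higher, beside 13.4% and 7.07% of all transcript clusters.

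Within the TIAR RIP 4 members fell with arsenite (AGO2, LARP1, PUM2 and RC3H2) and MOV10 rose, where 5.71% of all transcript clusters fell and 6.15% rose. The members' median was -0.32, against -0.004 for all transcript clusters. With the lowest 50% of signals left out, 12.4% of the transcript clusters kept fell and 14.1% rose. The TIAR count of 5 became 3 without treated replicate 2, control replicate 1 or control replicate 2. Within the G3BP1 RIP 1 member rose (MOV10) and 1 fell (TRIM25), beside 10.4% and 4.08% of all transcript clusters, with a members' median of -0.04 against 0.01. The G3BP1 count was 0 without treated replicate 2 or 3, 1 without treated replicate 1 or control replicate 1, 0 with the compared groups fitted alone and 5 without both arrays that stand apart, when DDX6, FMR1 and FXR2 also fell and 13.7% of all transcript clusters fell and 11.1% rose. Of the calls among all transcript clusters, 18.3% in input and 71.8% in the G3BP1 RIP were rises, or 34.3% and 58.3% with arrays centred on their medians. Without both arrays that stand apart the shares were 34.5% and 44.8%, so that most G3BP1 calls were then falls, as they were without replicate 3 of the control G3BP1 RIP alone (46.6% rises).

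An mRNA that was both higher with arsenite than without it in a RIP and higher in that RIP than in treated input meets the comparison that the study's design describes for stress granules. No member met both conditions in the TIAR RIP, where 385 transcript clusters (1.75%) did. MOV10 alone did so in the G3BP1 RIP, among 1271 transcript clusters (5.77%), with the dependence of its rise on single arrays given above.

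**Figure D3:**
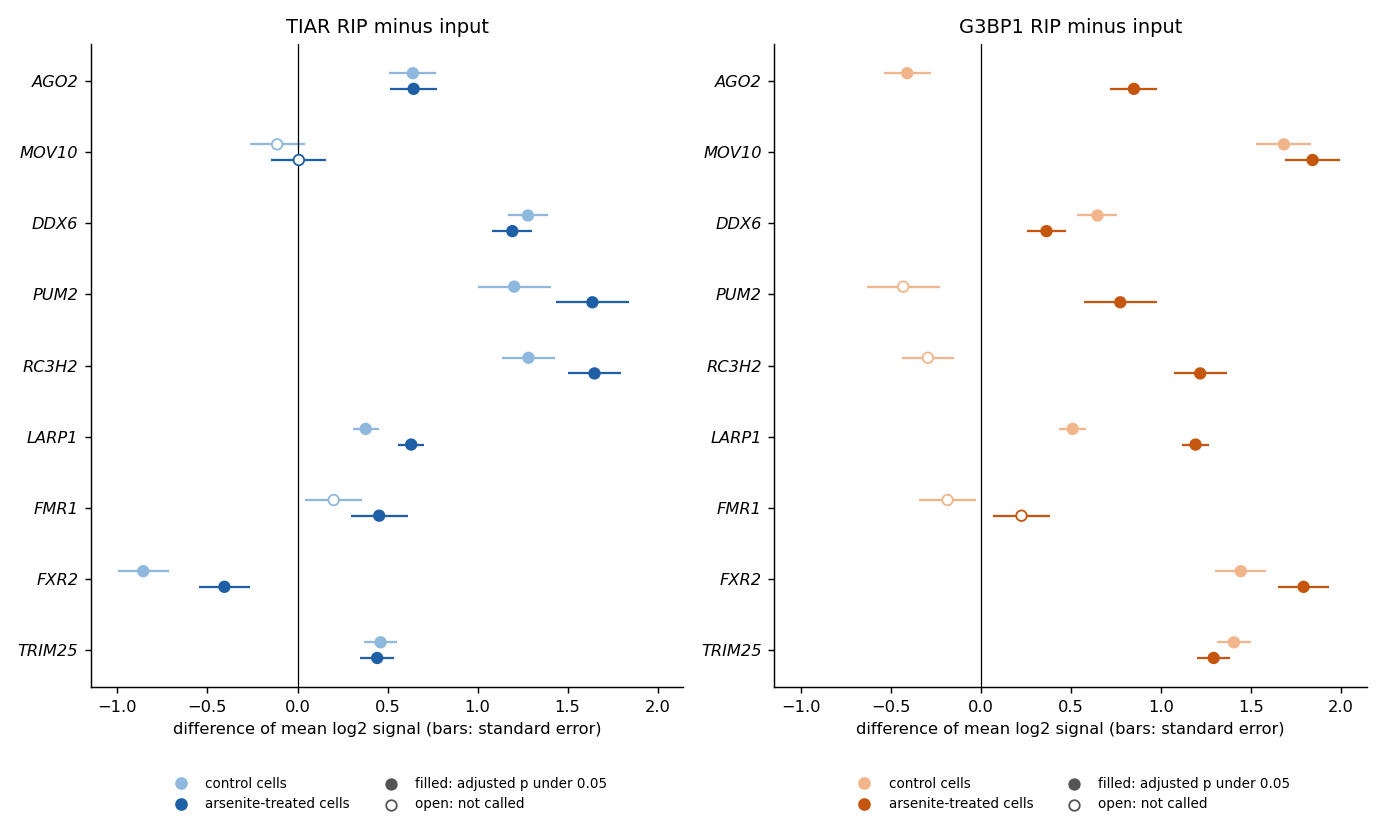
Each RIP minus input of the same cells, for control and arsenite-treated cells (difference of mean log2 signals, bars are standard errors, filled points passed the test). DDX6, PUM2 and RC3H2 lie furthest right in the TIAR RIP, MOV10, FXR2 and TRIM25 in the G3BP1 RIP of control cells, and AGO2, PUM2 and RC3H2 cross from the left to the right of 0 in the G3BP1 RIP.

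Set against input, the TIAR RIP of control cells held 6 members at a higher share (AGO2, DDX6, LARP1, PUM2, RC3H2 and TRIM25) and FXR2 at a lower one, beside 16.8% of all transcript clusters that were higher and 23.8% that were lower. In treated cells FMR1 joined the 6, making 7 higher and FXR2 lower, beside 20.3% and 23.5%. The members' medians were 0.46 and 0.63, against -0.05 and -0.08 for all transcript clusters. For the G3BP1 RIP of control cells, 5 members were higher than input (DDX6, MOV10, LARP1, FXR2 and TRIM25) and AGO2 was lower, beside 20.7% and 19.2%. In that of treated cells 8 members, all but FMR1, were higher and none was lower, beside 29.3% and 15.2%, and the members' median was 1.19 against 0.03. With arrays centred on their medians, rises made up 48.9% of all calls in that last comparison, against 65.9% as deposited, and 56.9% against 41.3% for the TIAR RIP of control cells.

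**Figure D4:**
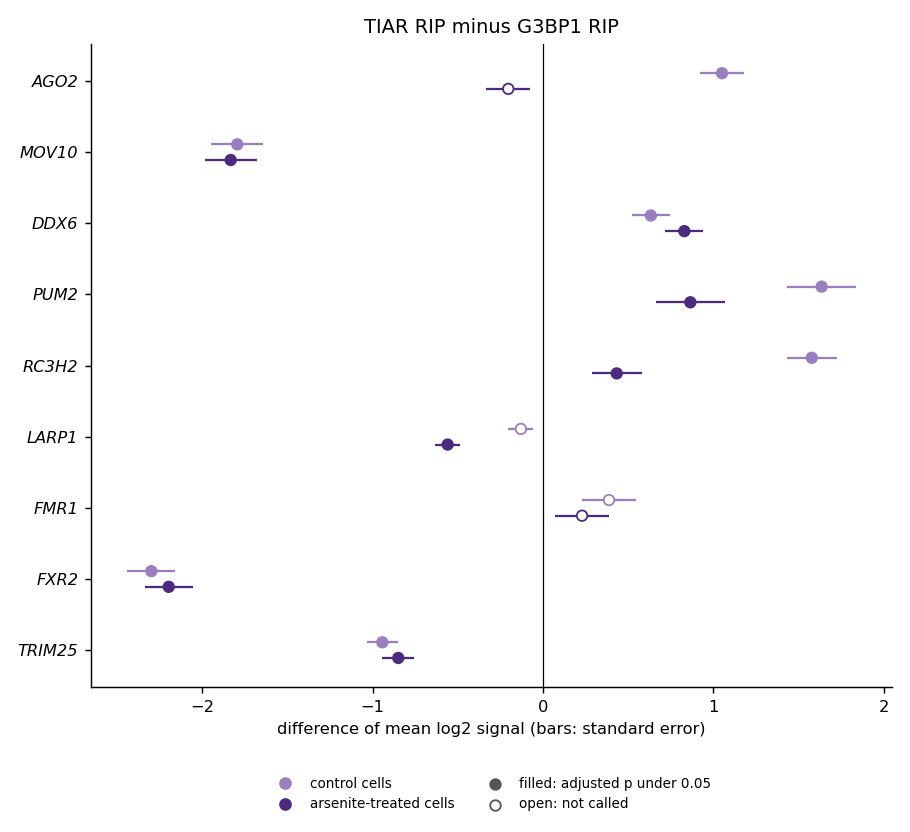
TIAR RIP minus G3BP1 RIP for each mRNA in control and in arsenite-treated cells (difference of mean log2 signals, bars are standard errors, filled points passed the test). MOV10, FXR2 and TRIM25 lie left of 0 in both conditions, DDX6, PUM2 and RC3H2 lie right of it, and AGO2 moves from 1.05 to -0.20.

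Compared directly, some members had a higher share in one RIP and some in the other. In control cells AGO2, DDX6, PUM2 and RC3H2 had a higher share in the TIAR RIP and MOV10, FXR2 and TRIM25 a higher share in the G3BP1 RIP, so 4 were higher and 3 lower, beside 19.3% and 27.5% of all transcript clusters. Those shares were 30.2% and 44.1% with the lowest 50% of signals left out, so the counts are not far from those of the brighter transcript clusters. The TIAR excess was 1.05 ± 0.13 for AGO2, 0.63 ± 0.11 for DDX6, 1.64 ± 0.20 for PUM2 and 1.58 ± 0.15 for RC3H2, with adjusted p from 2.3e-07 to 1.8e-04. The G3BP1 excess was widest for FXR2, at -2.30 ± 0.14 or 4.92-fold (adjusted p = 2.5e-09), followed by MOV10 at -1.80 ± 0.15 (adjusted p = 8.8e-08) and TRIM25 at -0.94 ± 0.09 (adjusted p = 4.4e-07). LARP1 and FMR1 did not pass (adjusted p = 0.17 and 0.0571), and the sign of LARP1, -0.13 as deposited, turned to 0.06 with median centring. FMR1, at 0.39 ± 0.16, passed with median centring (0.57, adjusted p = 6.0e-04), with quantile normalization (0.60, adjusted p = 1.2e-05), with either filter on low signals, and without replicate 1 or 2 of the control G3BP1 RIP.

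In treated cells DDX6, PUM2 and RC3H2 were higher in the TIAR RIP and MOV10, LARP1, FXR2 and TRIM25 higher in the G3BP1 RIP, 3 and 4 members beside 15.6% and 28.7% of all transcript clusters. Those shares were 24.96% and 46.63% with the lowest 50% of signals left out. FXR2 and MOV10 held their separation at -2.20 ± 0.14 and -1.83 ± 0.15 (adjusted p = 7.3e-09 and 1.0e-07). LARP1 was -0.56 ± 0.07 (adjusted p = 1.2e-05). FMR1 was 0.23 ± 0.16 (adjusted p = 0.278), and passed with median centring (0.46, adjusted p = 0.00415), quantile normalization (0.58, adjusted p = 2.1e-05) and array weights (0.27, adjusted p = 0.0444). AGO2 no longer passed at -0.20 ± 0.13 (adjusted p = 0.237), a sign that turned with median centring to 0.02, while it passed at the same -0.20 without both arrays that stand apart (adjusted p = 0.0079). RC3H2 came down to 0.43 ± 0.15 (adjusted p = 0.025), which was lost without treated TIAR replicate 1 or 3 or treated G3BP1 replicate 2 (adjusted p from 0.0672 to 0.0988). With arrays centred on their medians 54.5% of all calls in treated cells were higher in the TIAR RIP, against 35.3% as deposited.

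**Figure D5:**
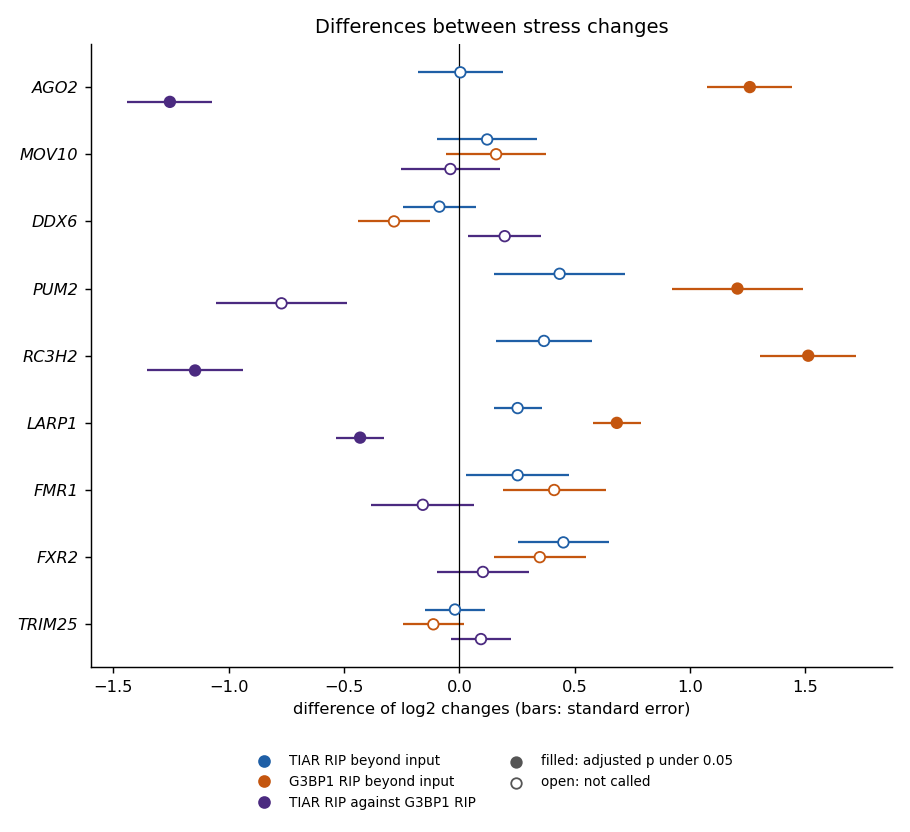
Differences between stress changes for each mRNA: TIAR RIP minus input, G3BP1 RIP minus input, and TIAR RIP minus G3BP1 RIP (differences of log2 changes, bars are standard errors, filled points passed the test). AGO2, PUM2, RC3H2 and LARP1 lie right of 0 for the G3BP1 RIP beyond input, and no TIAR RIP point beyond input is filled.

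The stress changes themselves were then compared between fractions, which share their input arrays. In the G3BP1 RIP the change exceeded that of input for AGO2 (1.26 ± 0.18, adjusted p = 3.3e-04), LARP1 (0.68 ± 0.10, adjusted p = 4.4e-04), PUM2 (1.21 ± 0.29, adjusted p = 0.00885) and RC3H2 (1.51 ± 0.21, adjusted p = 2.0e-04), the last at the 99.2 percentile of all transcript clusters. These were 4 members higher and none lower, beside 14.3% and 2.65% of all transcript clusters. Those shares were 30.7% and 5.70% with the lowest 50% of signals left out. DDX6, at -0.28 ± 0.16 (adjusted p = 0.262), was called lower with median centring (-0.44, adjusted p = 0.021), quantile normalization (-0.56, adjusted p = 0.00283), array weights (-0.45, adjusted p = 0.00973) and without both arrays that stand apart (-0.47, adjusted p = 0.0194). TRIM25, at -0.11 ± 0.13, was called lower with quantile normalization (-0.47, adjusted p = 0.0359). The lower share of all transcript clusters was 9.79% without both arrays that stand apart, 4.95% without replicate 3 of the control G3BP1 RIP, 4.25% without replicate 1 of treated input and 7.43% with quantile normalization. No change of AGO2, LARP1, PUM2 or RC3H2 passed the test within the G3BP1 RIP itself, where their differences were 0.25, 0.11, -0.04 and 0.15, and all 4 fell in input. The higher calls of these 4 were made in each of the other settings, including without both arrays that stand apart. Their sizes shrank in some settings, at the least to 0.97 for AGO2, 0.53 for LARP1, 0.72 for PUM2 and 1.19 for RC3H2.

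In the TIAR RIP no member's stress change differed from that of input by limma's test, beside 0.604% of transcript clusters higher and 0.05% lower. The smallest unadjusted p of that test were 0.0283 for LARP1 (0.25 ± 0.10, adjusted p = 0.316) and 0.0389 for FXR2 (0.45 ± 0.20, adjusted p = 0.353), neither of which passed. FXR2 passed at 0.42 without both arrays that stand apart (adjusted p = 0.0297), when 2.70% of all transcript clusters were higher and 0.627% lower. For AGO2 the value was 0.00 ± 0.18, with a 95% interval from -0.39 to 0.40. Between the RIPs, the stress changes of AGO2 (-1.25 ± 0.18, adjusted p = 4.1e-04), LARP1 (-0.43 ± 0.10, adjusted p = 0.0119) and RC3H2 (-1.15 ± 0.21, adjusted p = 0.00181) were lower in the TIAR RIP, 3 members beside 8.55% of all transcript clusters, and none was higher, beside 5.05%. PUM2 was -0.77 ± 0.29 (adjusted p = 0.0953) and passed without both arrays that stand apart at -0.57 (adjusted p = 0.00768), where FXR2 passed in the other direction at 0.34 (adjusted p = 0.0164).

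Other genes of these pathways were read from 8 lists with 92 genes, of which 77 had a row. In input 25 of the 77 fell with arsenite and 2 rose, with a median of -0.33 against -0.03 for all transcript clusters, of which 11.2% fell and 2.52% rose. In the TIAR RIP 20 fell and 4 rose, beside 5.71% and 6.15% of all transcript clusters, and in the G3BP1 RIP 10 fell and 9 rose, beside 4.08% and 10.4%. Beyond input 24 were higher and 4 lower in the G3BP1 RIP, beside 14.3% and 2.65%. With the lowest 50% of signals left out, the shares beyond input were 30.7% and 5.70%, so the higher count is near the share of the brighter transcript clusters. Of those, 24.7% fell and 4.43% rose in input, and 12.4% fell and 14.1% rose in the TIAR RIP. The shares beside the single lists below are over all transcript clusters. None passed beyond input in the TIAR RIP, where only 0.604% of all transcript clusters were higher and 0.05% lower, so the count is near the background. Against input of treated cells 38 were higher and 15 lower in the TIAR RIP, beside 20.3% and 23.5%, and 45 were higher and 10 lower in the G3BP1 RIP, beside 29.3% and 15.2%. With the lowest 50% of signals left out, those shares were 34.9% and 35.0% for the TIAR RIP and 48.6% and 17.2% for the G3BP1 RIP.

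The partners of AGO2 in microRNA silencing, which cover the other Argonautes, the TNRC6 scaffold proteins and the microRNA-processing enzymes, had 9 of 12 members lower in treated input and none higher, with a median of -0.63, beside 11.2% and 2.52% of all transcript clusters. AGO1 fell by 1.06 ± 0.14, DGCR8, the partner of Drosha, by 0.74 ± 0.11 (adjusted p = 5.6e-04) and TNRC6C by 0.67 ± 0.09 (adjusted p = 2.8e-04). With arsenite 5 fell in the TIAR RIP (beside 5.71%), among them TNRC6C by 0.84 ± 0.09 (adjusted p = 2.9e-05) and DICER1 by 0.73 ± 0.16 (adjusted p = 0.00737). Of the same 12, 3 fell and 2 rose in the G3BP1 RIP (beside 4.08% and 10.4%), with XPO5, the exporter of microRNA precursors, at -0.64 ± 0.13 (adjusted p = 0.00355). Beyond input 7 of the 12 were higher in the G3BP1 RIP and none lower (beside 14.3% and 2.65%), led by AGO1 at 1.57 ± 0.20 (adjusted p = 1.4e-04). TARBP2, the Dicer partner, lay below input in the TIAR RIP by -1.94 ± 0.12 in control cells (adjusted p = 6.2e-09), unlike TNRC6B at 0.86 ± 0.09 (adjusted p = 1.6e-06).

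Deadenylation genes, here subunits of the CCR4-NOT and PAN2-PAN3 complexes, the separate deadenylase PARN and adaptors of the TOB and BTG family, were higher than input in the TIAR RIP for 8 of 13 in control cells and 10 of 13 in treated cells, and lower for none. Of all transcript clusters 16.8% and 20.3% were higher and 23.8% and 23.5% lower. CNOT4 stood at 1.42 ± 0.15 and PAN3 at 1.49 ± 0.22 in control cells (adjusted p = 2.3e-06 and 5.1e-05). In the G3BP1 RIP of control cells 2 were higher and 3 lower (beside 20.7% and 19.2%), with PAN2, the catalytic partner of PAN3, at 1.66 ± 0.15 (adjusted p = 4.5e-07) and CNOT7, a CCR4-NOT nuclease, at -2.34 ± 0.25 (adjusted p = 2.7e-06). With arsenite 2 of the 13 fell in input, a share near the 11.2% of all transcript clusters: PAN3 by 1.02 ± 0.22 and CNOT6 by 0.86 ± 0.27 (adjusted p = 0.00616 and 0.0484). Of 18 decapping and P-body genes, the partners of DDX6, 5 were higher than input and 11 lower in the TIAR RIP of control cells, with a median of -0.56, beside 16.8% and 23.8% of all transcript clusters. In treated input 4 of these 18 fell, PATL1 by 0.61 ± 0.09 among them (adjusted p = 7.0e-04), and none rose, beside 11.2% and 2.52%. Beyond input in the G3BP1 RIP PATL1 was 1.11 ± 0.13 (adjusted p = 7.2e-05) and EDC4, a decapping scaffold, was -0.45 ± 0.09 (adjusted p = 0.00237).

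Sequence-specific repressors akin to PUM2 and RC3H2 had 4 of 10 genes lower and none higher in treated input (beside 11.2% and 2.52%), among them SAMD4B at -0.75 ± 0.08 (adjusted p = 4.6e-05) and ZFP36L2 at -0.48 ± 0.07 (adjusted p = 6.1e-04). In the TIAR RIP 6 of the 10 fell (beside 5.71%), and beyond input 5 of the 10 were higher in the G3BP1 RIP (beside 14.3%), including SAMD4B at 0.93 ± 0.12 and ZFP36L2 at 0.86 ± 0.10 (adjusted p = 1.1e-04 and 7.6e-05). All 6 nonsense-mediated decay genes with a row had a lower share in the TIAR RIP than in the G3BP1 RIP in control and in treated cells, with medians of -1.51 and -1.21, beside 27.5% and 28.7% of all transcript clusters. Of the 8 genes grouped with TRIM25 in RNA sensing, 6 exceeded input in the G3BP1 RIP of control cells and 7 in that of treated cells, and none was lower, beside 20.7% and 29.3% of all transcript clusters that were higher. Among them RNF135, a ubiquitin ligase of RIG-I signalling, fell by 1.09 ± 0.13 in treated input (adjusted p = 1.2e-04), and MAVS, its downstream adaptor, by 0.43 ± 0.08 (adjusted p = 0.00172), while ZC3HAV1, the antiviral protein that works with TRIM25, rose by 0.45 ± 0.14 (adjusted p = 0.0486). Of the 5 genes listed with FMRP, CYFIP2 alone passed in treated input, at -0.72 ± 0.12 (adjusted p = 0.00123), beside 11.2% of all transcript clusters that fell and 2.52% that rose. Of 5 other La-related genes, LARP6 alone did, at -0.65 ± 0.09 (adjusted p = 4.2e-04), beside the same shares. With lists of 5 genes, a single call is close to the background.

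Across the 18 arrays, which mix fractions and treatments, the members fell into patterns that the group means already show. Pearson's r was 0.972 between PUM2 and RC3H2, 0.932 between AGO2 and RC3H2, 0.896 between MOV10 and FXR2 and 0.858 between LARP1 and TRIM25, and -0.416 between PUM2 and FXR2; these are descriptions over 18 arrays of 6 groups. The genes with the most similar pattern over those arrays were ULK2, SAV1 and CDC14B for AGO2 (r from 0.971 to 0.983), MATN2, THBS2 and COL1A2 for MOV10 (0.989 to 0.994) and ERCC4, FRMD3 and CA13 for DDX6 (0.974 to 0.982). CILK1, TAOK1 and UBP1 were nearest to PUM2 (0.986 to 0.989) and TAOK1, FOXN3 and PPTC7 to RC3H2 (0.988 to 0.990), so TAOK1 stood on both lists. TICRR, ADD2 and GRB10 were nearest to LARP1 (0.982 to 0.989), ELF1, SBNO1 and SIRT1 to FMR1 (0.948 to 0.972), GOLGA2, ZNF335 and L3MBTL2 to FXR2 (0.992 to 0.997) and STAT3, ANK1 and ANKFY1 to TRIM25 (0.987 to 0.991).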

How the data were processed

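The authors deposited log2 signals per transcript cluster of 18 Affymetrix exon arrays, made with RMA (background correction, normalization and probe summary) in Affymetrix Expression Console, per the submitters' processing notes. The genome build was not given in the sources used here, nor were the software version and probe-set level. All 22011 transcript clusters were tested as deposited, and 14432 (65.6%) had a single symbol in the platform annotation.

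Group means were fitted for all 6 groups with limma 3.58.1 (lmFit and eBayes) in R 4.3.3, which leaves 12 residual degrees of freedom. The fit gave 12 contrasts. P-values are moderated and two-sided, adjusted by Benjamini-Hochberg over all transcript clusters within a contrast, and an adjusted p under 0.05 is a call. The fit was tested on simulated data. All 9 members are given in every contrast, each pathway list gives up to 3 genes with the smallest p, and each member gives its 3 most correlated genes; the Argonaute relatives and FXR1 are named as family members. Members and lists were chosen with earlier results of these data known. Correlations of deviations from the group means did not show pairing by replicate number. In 0 of 15 pairs of groups was every same-numbered correlation over 0.1 (range -0.405 to 0.416). With 3 arrays a group and 2 arrays that stand apart, this cannot exclude that same-numbered arrays came from the same cells. The number of arrays limits the precision. The settings tried as alternatives included a block on the replicate number, fitting only the groups compared, a robust prior with intensity trend, array weights, filters on the lowest 25% or 50% of signals, median centring, quantile normalization and arrays left out.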

Additional observations from a re-analysis of the deposited data

Results flagged for a closer look

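Stress changes that differed between fractions by a test of the difference itself were found for 4 members. In the G3BP1 RIP against input, the change of AGO2 was higher by 1.26, that of LARP1 by 0.68, that of PUM2 by 1.21 and that of RC3H2 by 1.51 on the log2 scale. Over the settings tried, the lowest values were 0.97 for AGO2, 0.53 for LARP1, 0.72 for PUM2 and 1.19 for RC3H2. In the TIAR RIP against the G3BP1 RIP, the differences were -1.25 for AGO2, -0.43 for LARP1 and -1.15 for RC3H2. Over the settings tried, their smallest sizes were -1.04, -0.39 and -0.95, in that order. Both comparisons share the G3BP1 arrays, so they are not separate evidence.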

How the results depend on the processing

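Of 108 member differences, 62 passed the test, 52 of these in every setting, and none of the 62 changed sign. Input went from 5 members called to 8 when arrays were weighted and also 8 when the 2 arrays standing apart were left out, and ranged from 5 to 6 with single arrays left out. Calls among all 22011 transcript clusters in input went from 3026 to 5328 with array weights and to 4517 without both arrays. For the TIAR RIP with arsenite, the 5 calls became 3 or 4 with single arrays left out, and the 2609 calls among all transcript clusters became 1802 to 2015. For the G3BP1 RIP with arsenite, the 2 calls became 0 with the compared groups alone, 5 with array weights, 4 with median centring, 4 with quantile normalization, 5 without both arrays and 0 to 3 with single arrays left out. Among all transcript clusters the 3189 calls became 866 with the compared groups alone, 6489 with array weights, 4221 with median centring, 4494 with quantile normalization and 5464 without both arrays. The TIAR RIP beyond input went from 0 to 1 (FXR2) with array weights and 1 without both arrays, while calls among all transcript clusters went from 144 to 1472 and 732. The stress change between RIPs went from 3 to 6 with array weights, 5 without both arrays and 3 to 4 with single arrays left out. The cause was not tested.

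The sources used here did not state whether arrays with the same replicate number came from the same cells. With the replicate block the counts of members called were 5, 4 and 2 for arsenite in input, the TIAR RIP and the G3BP1 RIP. They were 7 and 8 for the TIAR RIP against input in control and treated cells, and 6 and 8 for the G3BP1 RIP. Between RIPs they were 7 and 7, and for the stress changes compared 0, 4 and 3. MOV10 in the TIAR RIP was the one call lost, at adjusted p = 0.0611.

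Signs turned only for differences that passed in neither setting. With array weights these were, for arsenite against control, DDX6 in the TIAR RIP (0.0075) and RC3H2 in the G3BP1 RIP (-3e-04), for the treated TIAR RIP against input MOV10 (-0.13), for the TIAR change beyond input AGO2 (-0.03), MOV10 (-0.0485) and TRIM25 (0.0245), for the G3BP1 change beyond input MOV10 (-0.16), and between RIPs FMR1 (0.058) and MOV10 (0.11). With median centring they were MOV10 in the control TIAR RIP against input (0.058), LARP1 (0.056) and AGO2 (0.022) between RIPs, and the changes of AGO2 beyond input in the TIAR RIP (-0.11) and of MOV10 between RIPs (0.001). With quantile normalization they were MOV10 in the TIAR RIP against input (0.11 in control, -0.008 in treated cells), FMR1 in the treated G3BP1 RIP against input (-0.18), LARP1 (0.041) and AGO2 (0.055) between RIPs, and the changes beyond input of AGO2 (-0.17) and MOV10 (-0.12) in the TIAR RIP, of MOV10 in the G3BP1 RIP (-0.15) and of MOV10 between RIPs (0.0305). Without both arrays they were MOV10 in the treated TIAR RIP (-0.17) and its change in the TIAR RIP (-0.054), in the G3BP1 RIP (-0.21) and between RIPs (0.15), AGO2 in the TIAR RIP beyond input (-0.082) and FMR1 between RIPs (0.0027).

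With single arrays left out, arsenite differences that crossed 0 were DDX6 in input (-0.0505 to 0.15) and the TIAR RIP (-0.13 to 0.028), FXR2 in the TIAR RIP (-0.028 to 0.058) and the G3BP1 RIP (-0.32 to 0.051) and PUM2 in the G3BP1 RIP (-0.24 to 0.092). MOV10 in the treated TIAR RIP against input ran from -0.17 to 0.11. Changes beyond input ran from -0.082 to 0.064 for AGO2, -0.054 to 0.22 for MOV10 and -0.063 to 0.018 for TRIM25 in the TIAR RIP, and from -0.033 to 0.27 for MOV10 in the G3BP1 RIP. Between RIPs they ran from -0.25 to 0.0027 for FMR1, -0.033 to 0.34 for FXR2, -0.15 to 0.15 for MOV10 and -0.016 to 0.20 for TRIM25. Reading the dimmer transcript clusters of a member was planned and not run, since each member has 1.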
